A study of Mus musculus with 9 samples.

Results

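Mixl1, Gsc, Evx1, Lhx1, Cdx1, Cdx2, Cdx4 and Nkx1-2 are homeobox genes that are used in and around the primitive streak of the mouse embryo. They were taken by symbol from the table of raw counts, and all 8 were found among its 23453 gene symbols. The table holds 9 bulk RNA-seq libraries of wild-type mouse cells, 3 from each of 3 states. EpiLCs (epiblast-like cells) were naive embryonic stem cells kept for 48 h in N2B27 medium with 1% KSR (knockout serum replacement), Activin and Fgf2. aEpiLCs (anterior epiblast-like cells) were EpiLCs grown for a further 24 h in N2B27 with 1% KSR and neither factor. pEpiLCs (posterior epiblast-like cells) were EpiLCs grown for those 24 h in the same base with 20 ng/ml Activin and 3 μM CHIR99021, an agonist of Wnt/β-catenin signalling. Because EpiLCs were collected a day earlier, state and time in culture cannot be told apart in comparisons with EpiLCs. In the further 24 h Activin and CHIR99021 were only given together, and pEpiLC medium lacked the Fgf2 of EpiLC medium. The parental line of these libraries and the origin of the replicates are not given in the sources used here, so p-values measure the spread between 3 libraries, which may be technical.

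The primitive streak forms at the posterior side of the epiblast at gastrulation, where Wnt and Nodal signals act on epiblast cells that leave as mesoderm and endoderm. Homeobox genes encode transcription factors whose homeodomain places a recognition helix in the major groove of DNA. Mixl1 is expressed in the streak and acts in mesendoderm formation, Gsc and Lhx1 mark the anterior streak and the axial mesendoderm, and Evx1 marks the proximal and posterior streak. The caudal family (Cdx1, Cdx2 and Cdx4) patterns the posterior body axis upstream of Hox genes, and Cdx2 also specifies trophectoderm in the earlier embryo. Nkx1-2 marks the caudal epiblast beside the node and streak, where neuromesodermal progenitors lie.

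The recognition helix is shown because the residue at position 50 of the homeodomain contributes to the choice of DNA site. It is given for 7 of the 8 genes, all but Cdx1. Each line gives the 48 bases that code for homeodomain residues 42 to 57, from the reference transcripts (GENCODE vM21, GRCm38), with the codon of residue 50 in capitals.
Mixl1: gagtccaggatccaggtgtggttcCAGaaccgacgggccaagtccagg
Gsc: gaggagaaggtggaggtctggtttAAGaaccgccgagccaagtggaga
Evx1: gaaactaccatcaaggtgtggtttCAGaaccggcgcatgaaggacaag
Lhx1: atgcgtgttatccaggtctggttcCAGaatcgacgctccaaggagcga
Cdx2: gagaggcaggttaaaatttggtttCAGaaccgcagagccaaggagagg
Cdx4: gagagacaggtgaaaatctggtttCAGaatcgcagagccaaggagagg
Nkx1-2: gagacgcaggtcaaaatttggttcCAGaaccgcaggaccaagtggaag
The lysine codon AAG stood at this position in Gsc, and the other 6 genes shown had the glutamine codon CAG. Over the 180 bases of the homeobox, Cdx2 and Cdx4 were 81.1% identical and each was 78.3% identical to Cdx1. Outside the caudal family the closest pair was Mixl1 and Gsc (62.8%), and the most distant was Evx1 and Lhx1 (41.7%). Between any 2 of the whole reference transcripts used, the longest run of identical bases was 22, in Cdx2 and Cdx4. The read length was 150 bases, so that no read inside these transcripts can match 2 of these genes in full.

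The 8 genes lie on 8 different chromosomes (GRCm38, GENCODE vM21). Mixl1 (ENSMUSG00000026497.7) lies on chromosome 1, 180693043 to 180697034, Gsc (ENSMUSG00000021095.5) on chromosome 12, 104471209 to 104473330, and Evx1 (ENSMUSG00000005503.8) on chromosome 6, 52313498 to 52318378. Lhx1 (ENSMUSG00000018698.15) lies on chromosome 11, 84518284 to 84525535, and Nkx1-2 (ENSMUSG00000048528.7) on chromosome 7, 132594878 to 132599637. Cdx1 (ENSMUSG00000024619.8) lies on chromosome 18, 61018862 to 61036199, Cdx2 (ENSMUSG00000029646.3) on chromosome 5, 147300805 to 147307270, and Cdx4 (ENSMUSG00000031326.2) on chromosome X, 103321398 to 103330592. The counts are sums over all annotated exons of each gene, coding and untranslated. The exons of Evx1 overlap those of the antisense transcript Evx1os by 73 bases, and the exons of Nkx1-2 overlap those of the antisense transcript Gm16764, not analysed here, by 541 bases. Whether counting used strand is not given in the sources used here, so reads from these overlaps cannot be assigned with certainty.

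Total counts ran from 20560564 to 23417917 per library, and 3 counts, taken as the detection limit, correspond to 0.13 to 0.143 CPM (counts scaled by library size, the unit of level used here). pEpiLC replicate 1 stood apart from the other 2 pEpiLC libraries. The chi-square per degree of freedom between its counts and theirs was 39.4 and 37.7, against 4.37 between replicates 2 and 3 and 5.22 to 12.3 within the other states. Epiblast markers were present in all libraries, with a summed level over 11 genes of 5310 to 5630 CPM in EpiLCs, 4820 to 5060 CPM in aEpiLCs and 2520, 3840 and 3520 CPM in pEpiLC replicates 1, 2 and 3. Dnmt3b and Pou5f1 made up most of these sums, and the 11 genes moved both ways. Nanog was higher in each pEpiLC library (105, 247 and 255 CPM) than in any other library. Of the 11, only Fst had its highest pEpiLC level in replicate 1 (425, 184 and 172 CPM). Because replicate 1 stood apart, the tests of the 8 genes that use pEpiLCs are given below with and without it.

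The 8 genes together took 0.000304% to 0.000359% of all counts in EpiLCs and 0.00102% to 0.002% in aEpiLCs. In pEpiLC replicates 1, 2 and 3 they took 0.119%, 0.012% and 0.0124%. Every pEpiLC library thus lay above every other library, and replicate 1 lay far above the other pEpiLC libraries. These are bulk libraries, in which more cells of a type and more RNA per cell cannot be told apart.

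**Figure D1:**
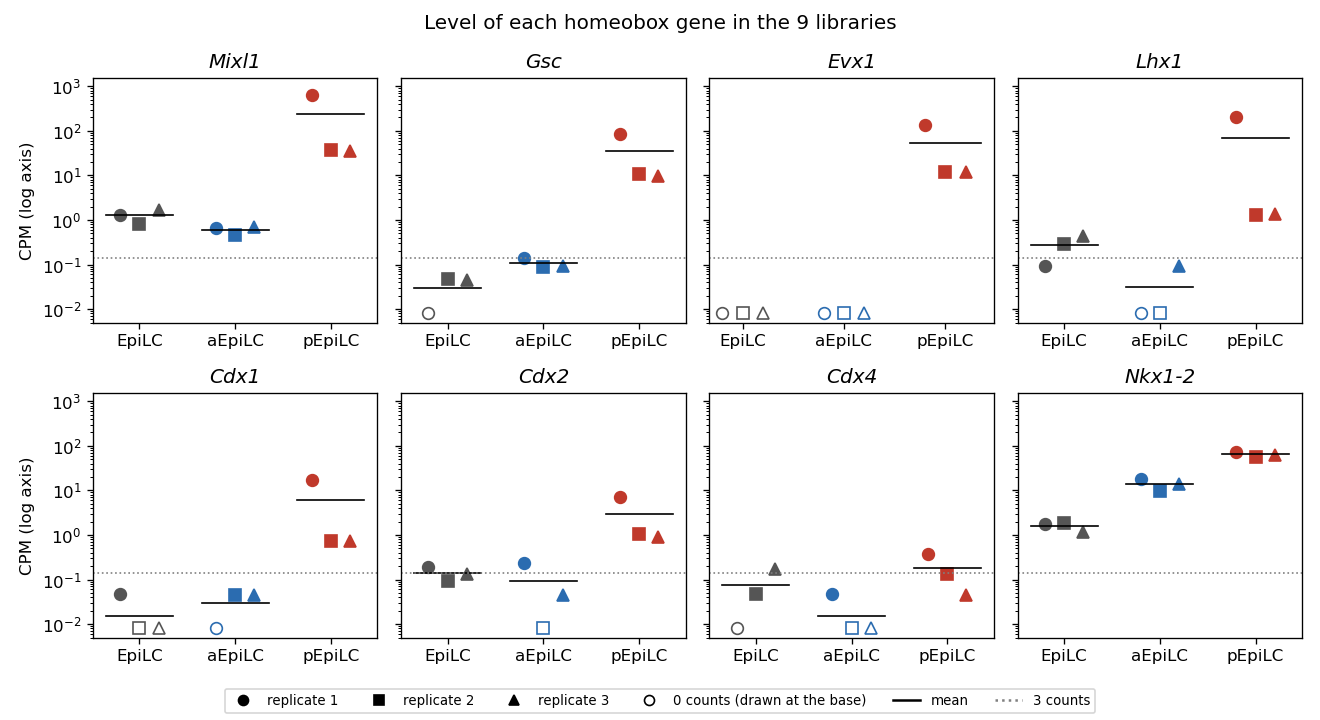
Level of each of the 8 genes in CPM (log axis) in the 3 EpiLC, 3 aEpiLC and 3 pEpiLC libraries, with the mean of each state as a bar and the level of 3 counts as a dotted line. Open symbols mark 0 counts and are drawn at the base of the axis. Nkx1-2 is higher in aEpiLCs than in EpiLCs and highest in pEpiLCs, with close pEpiLC replicates, and Cdx4 stays near 3 counts. In the other 6 genes pEpiLC replicate 1 has at least 6.67 times the level of the higher of replicates 2 and 3.

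In the comparison of pEpiLCs with aEpiLCs, which sets Activin plus CHIR99021 against base medium for the same time, 7 of the 8 genes passed the filter on low counts and Cdx4 did not. A gene was called at an adjusted p below 0.05 with a log2 fold change of at least 1 (edgeR's quasi-likelihood test with Benjamini-Hochberg adjustment over all 15198 genes tested). By this rule Mixl1, Gsc, Evx1, Cdx1, Cdx2 and Nkx1-2 were called higher in pEpiLCs, none was called lower, and Lhx1 was not called. Of all genes tested, 2.55% were called higher and 4.74% lower. All 3 pEpiLC libraries lay above all 3 aEpiLC libraries for each of the 7 genes, as they did for 18.3% of all genes tested. For a single gene the exact permutation test (2-sided) then gives p = 0.1, the smallest possible with 3 libraries against 3. Gsc, Evx1, Lhx1, Cdx1 and Cdx2 passed the filter only through their pEpiLC libraries, here and against EpiLCs, so that they had to differ, and their number is a description.

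In the comparison with EpiLCs, the state from which pEpiLCs were made, the same 7 genes were tested and all 7 were called higher in pEpiLCs. Of the 15288 genes tested, 7.71% were called higher and 8.13% lower. All 3 pEpiLC libraries lay above all 3 EpiLC libraries for these 7 genes, as for 28.2% of all genes tested. Without pEpiLC replicate 1, all 7 were called in both comparisons, Lhx1 included, where 2.51% of all genes were called higher than in aEpiLCs and 7.05% higher than in EpiLCs. Both comparisons use the same pEpiLC libraries, and each gene's values are therefore given side by side.

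Mixl1, a paired-type factor of the streak, was detected in all 9 libraries and was far higher in pEpiLCs. Its level was 644, 37.3 and 35.9 CPM in pEpiLC replicates 1, 2 and 3. It was 0.657, 0.45 and 0.69 CPM in the aEpiLC libraries and 1.31, 0.801 and 1.71 CPM in the EpiLC libraries. The lowest pEpiLC library thus had many times the level of any other state, and replicate 1 was 17.6 times the mean of replicates 2 and 3. Against aEpiLCs the log2 fold change came to 8.63 ± 1.62 (SE of the fit, adjusted p = 0.0132), and 5.93 without pEpiLC replicate 1. Under the alternatives its adjusted p lay between 7.32e-10 and 0.073, and Mixl1 was no longer called without aEpiLC replicate 1, 2 or 3. Against EpiLCs the log2 fold change came to 7.56 ± 1.51 (SE of the fit, adjusted p = 0.006), and 4.86 without pEpiLC replicate 1, and Mixl1 was called under every alternative that gave a p (adjusted p up to 0.0351).

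Gsc, a marker of the organiser region, was near the detection limit outside pEpiLCs. It had 83.7, 10.5 and 9.51 CPM in pEpiLC replicates 1, 2 and 3, against 3, 2 and 2 counts in the aEpiLC libraries and 0, 1 and 1 counts in the EpiLC libraries. The groups did not overlap in either comparison. The summed level in pEpiLCs was 313 times that in aEpiLCs (95% counting interval 151 to 779, adjusted p = 0.00772), and 93.3 times without pEpiLC replicate 1 (interval 44.9 to 233). Against EpiLCs the ratio was 1100 (interval 303 to 9060, adjusted p = 0.00249), and 327 without pEpiLC replicate 1 (interval 90.1 to 2710). Without aEpiLC replicate 2 the call against aEpiLCs was lost at an adjusted p of 0.0517, the highest among its alternatives.

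Evx1 was not detected outside pEpiLCs. All 6 EpiLC and aEpiLC libraries had 0 counts, and pEpiLC replicates 1, 2 and 3 had 135, 11.7 and 11.8 CPM. A count of 0 allows up to 0.132 to 0.141 CPM in those 6 libraries. It was at least 375-fold higher than in aEpiLCs (adjusted p = 0.0266) and at least 373-fold higher than in EpiLCs (adjusted p = 0.0114), with the limit of 3 counts taken per library. These bounds were 83.3-fold and 82.9-fold without pEpiLC replicate 1. The call against aEpiLCs was lost without aEpiLC replicate 1, 2 or 3 (adjusted p up to 0.0826), and that against EpiLCs was kept under every alternative that gave a p (adjusted p up to 0.0358).

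The opposite-strand neighbour Evx1os was high in the same libraries as Evx1, with 65.9, 4.26 and 4.14 CPM in pEpiLC replicates 1, 2 and 3 against 1 count in all other libraries together. Over the 9 libraries Evx1os was the gene whose log2 CPM had the highest Pearson correlation with that of Evx1 (r = 0.9953, prior count 2). When the prior count was 0.5 it was not among the first 3, which were Fst (r = 0.9944), Rreb1 and Wnt5b. Gm10000, which starts beside Gsc on the other strand, had 29, 2 and 11 counts in pEpiLC replicates 1, 2 and 3 and 0 elsewhere. Lhx1os, 125 bases from Lhx1 on the other strand, had 8 counts in pEpiLC replicate 1 and 0 in the other 8 libraries. Reads of these transcripts were found only where the neighbouring homeobox gene was at its pEpiLC level, apart from the 1 count of Evx1os.

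Lhx1, a LIM-homeodomain factor of the node and axial mesoderm, was the least even of the 8 genes. It had 208 CPM in pEpiLC replicate 1 and 1.26 and 1.33 CPM in replicates 2 and 3, against 0, 0 and 2 counts in the aEpiLC libraries and 0.0933, 0.283 and 0.439 CPM in the EpiLC libraries. Replicate 1 was 161 times the mean of the other 2 pEpiLC libraries, and even the lower of those lay above every library of the other states. Against aEpiLCs the ratio of summed levels was 2200 (95% counting interval 608 to 18200), but Lhx1 was not called (adjusted p = 0.0553). Without pEpiLC replicate 1 the ratio was 42.3 (interval 11.2 to 357) and Lhx1 was called (adjusted p = 0.000405), as it was without pEpiLC replicate 2 or 3. With the replicate block it was also called (adjusted p = 0.00167), 8 of 12 alternatives called it in all, and the alternatives gave adjusted p-values between 0.000171 and 0.217. Against EpiLCs the log2 fold change came to 7.99 ± 2.45 (SE of the fit, adjusted p = 0.0317), and 2.24 without pEpiLC replicate 1. That call was lost without EpiLC replicate 1, 2 or 3 (adjusted p up to 0.108).

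The caudal genes stayed near the detection limit outside pEpiLCs. Cdx1 had 16.8, 0.739 and 0.735 CPM in pEpiLC replicates 1, 2 and 3, with 0, 1 and 1 counts in the aEpiLC libraries and 1, 0 and 0 counts in the EpiLC libraries. The ratio of summed levels was 191 against aEpiLCs (95% counting interval 52.6 to 1580, adjusted p = 0.038) and 383 against EpiLCs (interval 68.3 to 15200, adjusted p = 0.0161). Without pEpiLC replicate 1 the ratios were 24.1 (interval 6.15 to 207) and 48.2 (interval 8.07 to 1960). The calls were lost without any of the aEpiLC replicates (adjusted p up to 0.135) and without any of the EpiLC replicates (adjusted p up to 0.0802), respectively.

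Cdx2 had 6.96, 1.04 and 0.919 CPM in pEpiLC replicates 1, 2 and 3. The aEpiLC libraries held 5, 0 and 1 counts and the EpiLC libraries 4, 2 and 3 counts. Each pEpiLC library held more Cdx2 than any other library, with 20 counts in the lowest. The log2 fold change was 4.93 ± 1.19 against aEpiLCs (SE of the fit, adjusted p = 0.0313) and 4.40 ± 1.02 against EpiLCs (SE of the fit, adjusted p = 0.0111). The log2 fold changes were 3.34 and 2.81 without pEpiLC replicate 1. The first call was lost without aEpiLC replicate 1, 2 or 3 (adjusted p up to 0.122), and the second without EpiLC replicate 2 (adjusted p = 0.0505). Since Cdx2 also belongs to trophectoderm, trophoblast markers were examined beside it. The summed level of the 15 markers in the table was 121, 93.2 and 95.3 CPM in pEpiLC replicates 1, 2 and 3, against 88.6 to 106 CPM in EpiLCs and 184 to 215 CPM in aEpiLCs. Of 8 markers tested against aEpiLCs 1 was called higher in pEpiLCs and 4 lower, and of 10 tested against EpiLCs 1 was called higher and 2 lower. The one called higher in both was Tfap2c, with 5.96, 1.87 and 2.11 CPM in pEpiLC replicates 1, 2 and 3 against 0.315 to 1.41 CPM elsewhere (log2 fold changes 2.42 and 1.86, adjusted p = 0.0318 and 0.0262, edgeR). Its log2 fold changes were 1.69 and 1.13 with pEpiLC replicate 1 left out, and it was still called in both (adjusted p = 0.0138 and 0.0154, edgeR), where 1 marker was called higher and 4 lower of 9 against aEpiLCs and 1 higher and 2 lower of 10 against EpiLCs. Like Cdx2, 10 of the 15 markers had their highest pEpiLC level in replicate 1. Of these, 6 were higher there than in all other libraries. The counts include near ties such as Plac1 (0.286, 0.261 and 0.276 CPM), and the share over all genes was not computed. Hand1 had 0.953, 0.0435 and 0 CPM, Tead4 2.67, 0.565 and 0.827 CPM and Ets2 46.3, 20.3 and 22.1 CPM in pEpiLC replicates 1, 2 and 3. Elf5 and Gata3 had 0.0477, 0.0435 and 0.046 CPM and 0.191, 0 and 0 CPM in the same libraries. Among these values only that of Gata3 in replicate 1 lay above 3 counts. The part of trophoblast cells in the level of Cdx2 was not tested.

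Cdx4 stayed at or near the detection limit in every state. It had 8, 3 and 1 counts in pEpiLC replicates 1, 2 and 3, 1, 0 and 0 in the aEpiLC libraries, and 0, 1 and 4 in the EpiLC libraries. pEpiLC replicate 3 overlapped both other states, and Cdx4 did not pass the filter on low counts in any comparison. The ratio of summed levels in pEpiLCs to aEpiLCs was 11.9, with a 95% counting interval of 1.76 to 509 that leaves out 1 but covers counting error only, and 5.83 without pEpiLC replicate 1 (interval 0.577 to 287). The exact permutation test over 3 libraries in each state (2-sided, smallest possible p 0.1) gave p = 0.2 against aEpiLCs and p = 0.5 against EpiLCs.

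Nkx1-2 and Mixl1 were the 2 genes of the 8 that were above the detection limit in every library, and Nkx1-2 rose in both later states. It had 1.73, 1.84 and 1.19 CPM in the EpiLC libraries, 18.3, 9.54 and 14.2 CPM in the aEpiLC libraries, and 71.4, 57.3 and 63 CPM in pEpiLC replicates 1, 2 and 3. The states did not overlap, and the pEpiLC libraries lay close together, with replicate 1 at 1.19 times the mean of the others. The log2 fold change was 2.19 ± 0.22 against aEpiLCs (SE of the fit, adjusted p = 0.000982) and 5.36 ± 0.173 against EpiLCs (SE of the fit, adjusted p = 4.64e-06). Without pEpiLC replicate 1 the log2 fold changes were 2.11 and 5.28, and both calls were kept under every alternative (adjusted p up to 0.0117 and 0.000395, respectively).

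**Figure D2:**
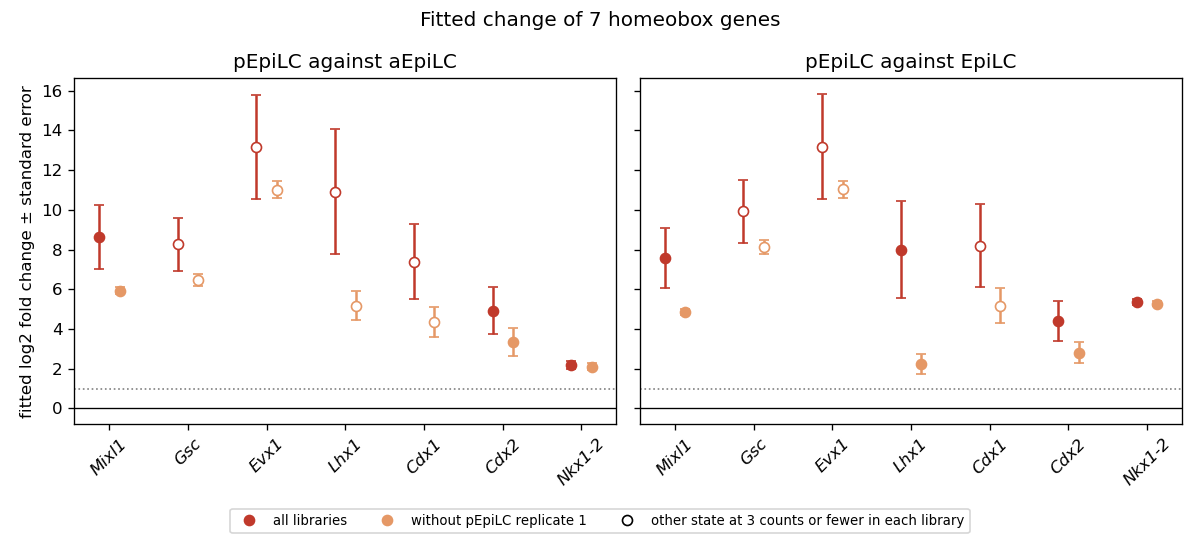
Fitted log2 fold change with its standard error for the 7 genes tested, in pEpiLCs against aEpiLCs (left) and against EpiLCs (right), with all libraries and without pEpiLC replicate 1. The dotted line marks the limit of 1 used for calls, and open symbols mark genes with 3 counts or fewer in every library of the other state, whose fitted value depends on the prior count. Without pEpiLC replicate 1 the estimates are lower and their errors smaller, apart from Nkx1-2, whose values of 2.19 and 2.11 against aEpiLCs nearly coincide.

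The comparison of aEpiLCs with EpiLCs asks what a day in base medium does without Activin, Fgf2 or CHIR99021. Nkx1-2 rose by 3.15 ± 0.249 on the log2 scale (SE of the fit, adjusted p = 4.28e-07, edgeR), an 8.85-fold change in mean CPM, and it was called under every alternative (adjusted p up to 2.08e-05). Its aEpiLC libraries lay above all its EpiLC libraries, as did those of 28.6% of the 15301 genes tested, and 7.25% of them were called higher. For Mixl1 the log2 fold change was -1.09 ± 0.373 (SE of the fit, adjusted p = 0.0287), where 5.24% of all genes were called lower. This call rested on 39 counts in aEpiLCs and 84 in EpiLCs, and it was lost under 7 of 14 alternatives, with an adjusted p of up to 0.726, among them the fits without aEpiLC replicate 1 or 2 and without EpiLC replicate 1 or 3. The other 6 genes did not pass the filter. The aEpiLC and EpiLC libraries of Mixl1 did not overlap. Lhx1 had 0, 0 and 2 counts in aEpiLCs against 2, 6 and 10 in EpiLCs, which touch at 2 counts (0.092 and 0.0933 CPM), and Gsc had 3, 2 and 2 counts in aEpiLCs against 0, 1 and 1 in EpiLCs, the other way and with no overlap. For each of Mixl1, Lhx1 and Gsc the exact permutation test (2-sided) gave p = 0.1, the smallest possible with 3 libraries against 3. The states overlapped for Cdx1, Cdx2 and Cdx4, at 0 to 5 counts a library, and Evx1 had none.

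Levels of different genes were compared per kilobase of exon. In EpiLCs Mixl1 (0.555 ± 0.199 CPM per kb, SD, n = 3) and Nkx1-2 (0.486 ± 0.107 CPM per kb, SD, n = 3) led and did not differ beyond their spread, and the other 6 had means of 0 to 0.0667 CPM per kb. In aEpiLCs Nkx1-2 led with 4.29 ± 1.34 CPM per kb (SD, n = 3), followed by Mixl1 with 0.261 ± 0.0567 CPM per kb (SD, n = 3), and the other 6 had means of 0 to 0.0849 CPM per kb. In pEpiLCs the means of no neighbours in the order differed beyond their spread, with an SD that included replicate 1.

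The order of the genes differed between pEpiLC libraries. In replicate 1 Mixl1 led with 281 CPM per kb, followed by Gsc (66), Lhx1 (51.1), Evx1 (46.9), Nkx1-2 (21.9), Cdx1 (9.6), Cdx2 (3.08) and Cdx4 (0.194). In replicates 2 and 3 Nkx1-2 led with 17.6 and 19.3 CPM per kb, followed by Mixl1 (16.3 and 15.6), Gsc (8.28 and 7.5) and Evx1 (4.07 and 4.1). Cdx2 (0.46 and 0.406) and Cdx1 (0.422 and 0.42) were within their spread of each other, Lhx1 had 0.309 and 0.327 CPM per kb, and Cdx4 was the lowest with 0.0662 and 0.0234 CPM per kb. Lhx1 thus ranked 3 in replicate 1 and 7 in both other libraries.

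**Figure D3:**
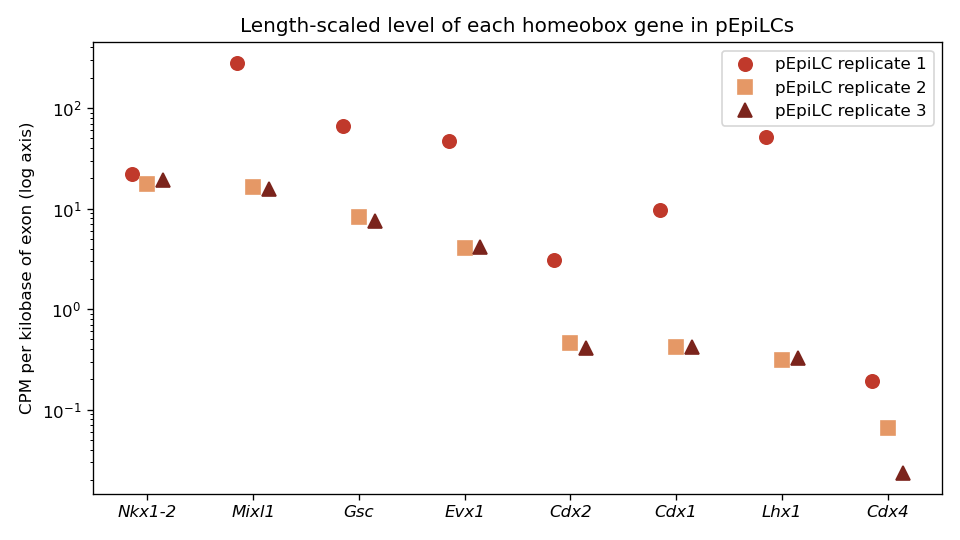
CPM per kilobase of exon (log axis) of the 8 genes in the 3 pEpiLC libraries, ordered by replicate 2. Replicates 2 and 3 nearly coincide from Nkx1-2 (17.6 and 19.3) down to Lhx1 (0.309 and 0.327), while replicate 1 puts Mixl1 first at 281 and Lhx1 at rank 3 with 51.1.

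The excess in pEpiLC replicate 1 was set against that of all genes. Among 13455 genes with a mean of at least 1 CPM in pEpiLCs, the level in replicate 1 over the mean of replicates 2 and 3 had a median of 0.996, with 5th and 95th percentiles of 0.55 and 1.87, and 1.37% of genes had a ratio of at least 4. Of the 7 homeobox genes at that level, 6 had a ratio of at least 4, namely Lhx1 (161), Cdx1 (22.8), Mixl1 (17.6), Evx1 (11.5), Gsc (8.37) and Cdx2 (7.09). They held ranks 8, 30, 39, 59, 77 and 89 of 13455, and Nkx1-2 (1.19) held rank 3124. Cdx1 and Cdx2 reached a mean of 1 CPM only through replicate 1, which favoured a high ratio. With the mean of 1 CPM asked of replicates 2 and 3 alone, a filter chosen after seeing the data that leaves out genes high in replicate 1 alone, 4 of 5 homeobox genes had a ratio of at least 4 (Lhx1, Mixl1, Evx1 and Gsc, but not Nkx1-2), against 0.667% of 13342 genes. Cdx4, below 1 CPM, had a ratio of 4.32 on 8 counts. Between replicates 2 and 3 the same 7 genes differed little, with ratios of 0.91 to 1.13.

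**Figure D4:**
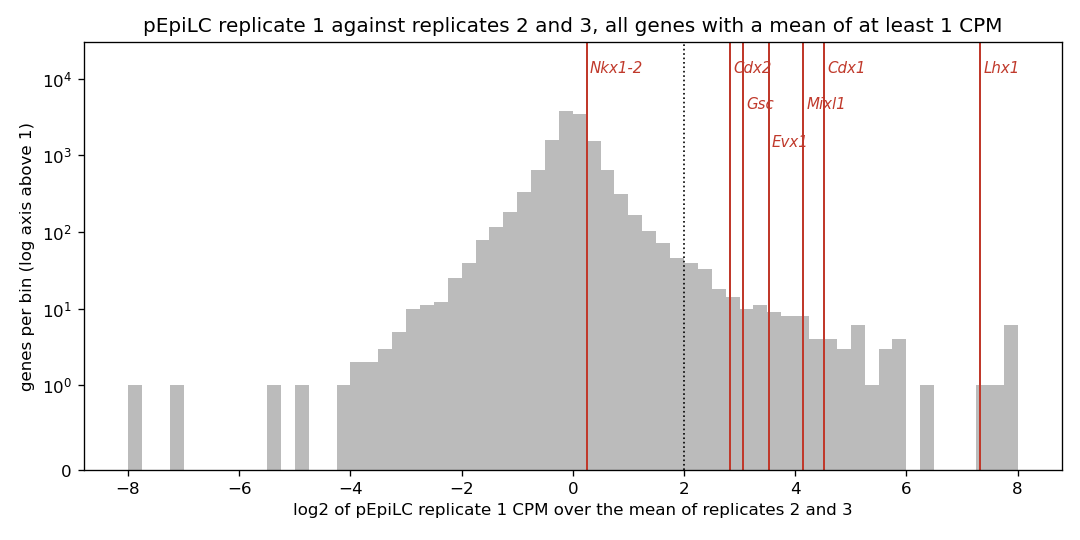
Number of genes by the log2 ratio of their level in pEpiLC replicate 1 to the mean of replicates 2 and 3 (bins of 0.25, count axis logarithmic above 1, ratios beyond the axis drawn in the outermost bins), over 13455 genes with a mean of at least 1 CPM in pEpiLCs. Red lines mark 7 homeobox genes and the dotted line a ratio of 4, which 184 genes reach. Of these 7, Lhx1 lies farthest out at a ratio of 161 and Nkx1-2 within the bulk at 1.19.

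Other genes moved with this library. Of 32 further streak and mesoderm genes at 1 CPM or more in pEpiLCs, 19 had a ratio of at least 4 and the median ratio was 5.23, and their summed level was 3670, 1450 and 1440 CPM in pEpiLC replicates 1, 2 and 3. Of 22 other homeobox genes, 7 had a ratio of at least 4 and the median was 1.48. With the filter on replicates 2 and 3 alone, which leaves out genes that were high in replicate 1 alone, these counts were 8 of 21 streak and mesoderm genes and 1 of 16 other homeobox genes. None of 11 epiblast markers, 5 naive pluripotency markers, 6 trophoblast markers and 6 fibroblast markers had such a ratio, with medians of 0.555, 1.06, 1.72 and 1.02. Of 9 markers of extraembryonic endoderm, 3 did, all below 1 CPM in replicates 2 and 3. With the filter on replicates 2 and 3 alone it was 0 of 6. Gata6 had 46.5, 0.0869 and 0.138 CPM in pEpiLC replicates 1, 2 and 3, Gata4 12.3, 0.435 and 0.322 CPM and Sox17 4.67, 0.261 and 0 CPM. Over the whole list, 7 of 14 markers had their highest pEpiLC level in replicate 1. Of these, 5 were higher there than in all other libraries, and the share over all genes was not computed. Apoe (105, 187 and 198 CPM) and Sparc (43, 68.9 and 74.7 CPM) were lowest there. The summed level of the 14 extraembryonic endoderm markers in the table was 663, 512 and 522 CPM in pEpiLC replicates 1, 2 and 3, 573 to 584 CPM in aEpiLCs and 442 to 493 CPM in EpiLCs, with Hnf4a at 0 counts in all pEpiLC and aEpiLC libraries. Lamb1 alone had 439, 250 and 243 CPM in the 3 pEpiLC libraries, a larger rise in replicate 1 than that of the sum. Apoe and Sparc, lowest there, brought the sum down. The part of any of these cell types in the levels of the 8 genes was not tested.

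The levels of the 8 genes rose and fell together across libraries to different degrees. Over the 9 libraries the Pearson correlation of log2 CPM was 0.97 for Mixl1 and Gsc, 0.98 for Mixl1 and Evx1 and 0.99 for Gsc and Evx1, but 0.52 for Lhx1 and Nkx1-2. Cdx4, at a few counts, had values of 0.32 with Nkx1-2 and 0.69 to 0.85 with the other 6. With pEpiLC replicate 1 left out the values were 0.95, 0.98 and 0.99 for the first 3 pairs, 0.34 for Lhx1 and Nkx1-2, and 0 to 0.63 for Cdx4 with the other 7. The 9 libraries fall into 3 states and pEpiLC replicate 1 lies apart, so these values describe that layout. Among 13656 genes with a mean of at least 1 CPM, those most like each gene were Dennd2c for Mixl1 (r = 0.9897), Fst for Gsc (r = 0.9956), Evx1os for Evx1, Syap1 for Lhx1 (r = 0.9934), Arid3b for Cdx1 (r = 0.9921), Dennd2c for Cdx2 (r = 0.985) and the long transcript 2900097C17Rik for Nkx1-2 (r = 0.9952). The next were Tdrd5 and Adamts9 for Mixl1, Evx1 and Lrig1 for Gsc, Gsc and Wnt5b for Evx1, Plxna2 and Syngr2 for Lhx1, Surf4 and Clptm1 for Cdx1, Hes1 and Mfsd1 for Cdx2, and Tnfrsf19 and Ghr for Nkx1-2. With that library left out, 2 of these 3 genes came back for Nkx1-2, 1 each for Evx1 and Lhx1, and 0 for Mixl1, Gsc, Cdx1 and Cdx2.

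The other homeobox genes moved both ways. Of 54 listed, 51 were in the table and 22 were tested between pEpiLCs and aEpiLCs, of which 1 was called higher and 3 lower, and the median log2 fold change was 0.03, against 0.01 over all genes. The 3 that fell were the neural and epiblast regulators Pou3f1 (log2 fold change -2.65, adjusted p = 0.00964), Otx2 (log2 fold change -1.04, adjusted p = 0.000303) and Pax6 (adjusted p = 0.00061), which had 1.83 to 2.16 CPM in aEpiLCs and at most 3 counts in each pEpiLC library. Against EpiLCs 6 of 25 were called higher in pEpiLCs, among them Zeb2 (4.32), Meis2 (3.28), Msx1 (2.88) and Irx2 (2.02), and 4 lower, among them Pou3f1 (-2.64), En2 (-1.17) and Pax6 (adjusted p = 0.00495). From EpiLCs to aEpiLCs 6 of 24 were called higher, led by Zeb2 (3.76), Meis2 (2.57), Irx3 (2.04) and Pax6 (1.81), and 4 lower, among them Gsc2 (-1.68) and En2 (-1.33). In these lists the values in parentheses are log2 fold changes, and all p-values are from edgeR. With pEpiLC replicate 1 left out, 2 were called higher and 4 lower of 23 against aEpiLCs (median -0.13), and 3 higher and 4 lower of 26 against EpiLCs (median -0.06). Msx1 had 22.1, 2.09 and 2.21 CPM and Meis2 4.62, 0.826 and 0.873 CPM in pEpiLC replicates 1, 2 and 3. Their log2 fold changes against EpiLCs were 0.85 and 1.98 without replicate 1, so that Msx1 was no longer called, nor were En2 against EpiLCs (-0.85) and Otx2 against aEpiLCs (-0.98). The values then were 3.96 for Zeb2 and 2.12 for Irx2 against EpiLCs, and -2.23 and -2.22 for Pou3f1 against aEpiLCs and EpiLCs. Without EpiLC replicates 1, 2 and 3 in turn, 5, 6 and 6 other homeobox genes were called between pEpiLCs and EpiLCs in place of 10.

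The further streak and mesoderm genes moved more. Of 36 listed, 25 were tested between pEpiLCs and aEpiLCs, 15 were called higher and 1 lower, with a median log2 fold change of 3.32. T (Brachyury), the T-box factor of the streak, had 1090, 204 and 219 CPM in pEpiLC replicates 1, 2 and 3 against 0.598 to 1.22 CPM in aEpiLCs (log2 fold change 9.14, adjusted p = 0.00122). The other largest were Sp5, a Wnt target (9.21, adjusted p = 0.00234), Foxa2, an endoderm and node factor (8.89, adjusted p = 9.05e-05), and Fgf8 (8.14, adjusted p = 1.58e-05), and Fgf4 was the one that fell (-3.02, adjusted p = 0.003). Against EpiLCs 18 of 27 were called higher and 1 lower (median 3.90), with T (10.68), Foxa2 (8.36), Sp5 and Cyp26a1 among the former and Fgf4 (-4.58) again the latter. Sp5 had at most 3 counts and Cyp26a1 0 counts in every EpiLC library, so no fitted fold is given for them. Leaving out pEpiLC replicate 1, 16 were called higher and 2 lower of 25 against aEpiLCs (median 2.62), and 16 higher and 5 lower of 27 against EpiLCs (median 1.76). The log2 fold changes against aEpiLCs were then 7.89 for T, 7.93 for Sp5, 8.62 for Foxa2, 8.08 for Fgf8 and -2.63 for Fgf4, and those against EpiLCs were 9.44 for T, 8.09 for Foxa2 and -4.20 for Fgf4. From EpiLCs to aEpiLCs 6 of 22 were called higher, led by Wnt8a (3.11), Wnt5a (2.55), Apln (2.49) and Sp8 (2.09), and 7 lower, led by Lefty2 (-4.10), Tdgf1 (-4.01), Fgf8 (-2.75) and Nodal (-1.71), with a median of -0.26.

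Promoters are shown because the 8 genes were low in EpiLCs and most were high in the same libraries. RefSeq promoters (GRCm38.p6, 250 bases before to 50 after the start) were matched for 6 of the 8 genes, all but Mixl1 and Cdx1. None of the 6 held the TCF/LEF letters CTTTGA or CTTTGT, found in 31.2% of 32851 mouse promoters of the same length, the T-box letters AGGTGTNA (3.03%), the FOXH1 letters AATNCACA (3.6%), the bicoid-type letters TAATCC (7.06%) or the caudal-type letters TTTATG (11.9%), searched on both strands. That says only that these letters are not in these windows. The POU octamer ATGCAAAT, searched after the sequences had been seen and also on both strands, was in 3 of the 6 (Cdx2, Evx1 and Cdx4), against 1.74% of all promoters. The 3 promoters with the octamer and that of Nkx1-2, which lacks it, are printed in the direction of transcription, with the octamer or its reverse complement in capitals. Its first base lies at position -147 in Cdx2 (chr5:147307200-147307499, minus strand), -126 in Evx1 (chr6:52313248-52313547, plus strand) and -93 in Cdx4 (chrX:103321148-103321447, plus strand) counted from the start as 0, and the Nkx1-2 window is chr7:132599588-132599887, minus strand.
Cdx2: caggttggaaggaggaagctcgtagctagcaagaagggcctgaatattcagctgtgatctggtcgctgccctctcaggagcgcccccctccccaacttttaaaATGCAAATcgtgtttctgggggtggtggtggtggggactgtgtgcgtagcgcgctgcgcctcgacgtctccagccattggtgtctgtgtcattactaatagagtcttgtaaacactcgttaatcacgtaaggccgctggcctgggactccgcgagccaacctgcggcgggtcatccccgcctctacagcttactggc
Evx1: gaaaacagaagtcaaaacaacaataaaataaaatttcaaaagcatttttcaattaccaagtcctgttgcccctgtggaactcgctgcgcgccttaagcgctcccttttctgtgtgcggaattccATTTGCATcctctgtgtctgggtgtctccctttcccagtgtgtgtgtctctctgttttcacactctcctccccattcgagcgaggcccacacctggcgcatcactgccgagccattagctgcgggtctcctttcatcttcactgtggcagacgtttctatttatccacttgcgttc
Cdx4: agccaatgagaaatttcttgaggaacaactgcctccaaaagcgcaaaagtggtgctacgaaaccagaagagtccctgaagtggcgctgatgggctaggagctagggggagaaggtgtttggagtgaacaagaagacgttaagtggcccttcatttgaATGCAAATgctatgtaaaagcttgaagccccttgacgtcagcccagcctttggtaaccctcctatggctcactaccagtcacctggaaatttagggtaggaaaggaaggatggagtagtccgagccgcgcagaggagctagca
Nkx1-2: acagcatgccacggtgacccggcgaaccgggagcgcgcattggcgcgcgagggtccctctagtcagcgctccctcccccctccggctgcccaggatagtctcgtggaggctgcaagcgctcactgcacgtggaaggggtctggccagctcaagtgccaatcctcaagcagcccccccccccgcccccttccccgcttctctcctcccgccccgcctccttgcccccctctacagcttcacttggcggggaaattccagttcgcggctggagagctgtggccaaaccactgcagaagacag
The 3 genes with these letters differed in level, as Evx1 reached 46.9 CPM per kb and Cdx4 0.194 CPM per kb in pEpiLC replicate 1. A match of letters is a description and not a site shown to be bound.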

How the data were processed

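Bulk RNA-seq of 9 libraries was used. Per the labels, the authors' processing notes list STAR 2.7.9a, RSEM 1.3.1 and the build GRCm38. The deposited table holds expected counts per gene symbol, unnormalised, and they were rounded to whole numbers here. CPM were computed over library sizes scaled by TMM. Each pair of states was fitted on its own 6 libraries with edgeR 4.0.16 (filterByExpr, glmQLFit, glmQLFTest, R 4.3.3), with Benjamini-Hochberg adjustment over all genes tested, and the steps were tested on simulated data. The study's methods name edgeR as well. A call needed an adjusted p below 0.05 together with a log2 fold change of 1 or more in either direction. Where every library of the other state had 3 counts or fewer, a ratio of summed counts over summed library sizes replaced the fitted value, with an exact 95% interval, or, at 0 counts, a lower bound. Intervals and bounds cover counting error only. Correlations used log2 CPM with a prior count of 2. The genes, lists and tests were chosen with earlier results of these data known. Named were the 8 genes, up to 3 most correlated genes each, up to 4 called genes per list, direction and comparison, and overlapping genes. Some genes that this rule would name are not reported here. Alternatives were RLE size factors, DESeq2 1.42.0, edgeR's likelihood ratio test, other filters, all 9 libraries in 1 fit, a replicate block, no limit on fold change and leaving out each library.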

Additional observations from a re-analysis of the deposited data

How the results depend on the processing

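Between pEpiLCs and aEpiLCs, 6 of the 8 genes were called. DESeq2 called 2 (5 had no p because of its cutoff on outlying counts, and 7 were called without that cutoff, chosen after seeing the data), and a minimum of 10 counts in every library also gave 2, since it tested only 2. Leaving out each replicate gave 1 to 7. Against EpiLCs, where 7 were called, DESeq2 gave 2 with 5 left without a p, the filter of 10 counts gave 2 of 2 tested, and leaving out each replicate gave 4 to 7. Between aEpiLCs and EpiLCs, where 2 were called, DESeq2 with or without its cutoff and the fit of all 9 libraries gave 1, and leaving out each replicate gave 1 to 2. No log2 fold change of a gene tested in the comparison (7, 7 and 2 of the 8) changed direction under the alternatives that gave a value.

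For the other homeobox genes, all 9 libraries in 1 fit gave 7 calls in place of 4 between pEpiLCs and aEpiLCs, and leaving out each replicate gave 5 to 12 in place of 10 between pEpiLCs and EpiLCs. For the further streak and mesoderm genes, the filter of 10 counts gave 11 calls in place of 19 between pEpiLCs and EpiLCs, and all 9 libraries in 1 fit gave 8 in place of 13 between aEpiLCs and EpiLCs. The cause of these changes was not tested. Without aEpiLC replicate 1, 2 or 3, 648, 514 or 583 of all genes were called between pEpiLCs and aEpiLCs in place of 1108.

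Whether samples with the same replicate number belong together is not given in the sources used here. The correlations of their deviations were 0.19, 0.13 and 0.08 for pEpiLCs and aEpiLCs. They were 0.03, 0.04 and 0.01 for pEpiLCs and EpiLCs, and 0.02, -0.05 and -0.04 for aEpiLCs and EpiLCs. In the first 2 comparisons each pEpiLC library correlated best with its own number, as a hint from the data. The best match of the aEpiLC or EpiLC libraries to pEpiLCs was not looked at. With the replicate block, 7, 7 and 2 of the 8 genes were called in the 3 comparisons, and 1123, 2299 and 1878 of all genes in place of 1108, 2421 and 1911.

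The most similar genes depended on the setting. With a prior count of 0.5 in place of 2, all 3 genes listed came back for Mixl1 and Nkx1-2, 1 each for Evx1, Lhx1 and Cdx2, and 0 for Gsc and Cdx1. With Spearman's rho, 0 or 1 of the 3 genes listed for each homeobox gene came back. The lengths of the longest transcripts moved no level per kilobase in pEpiLCs beyond its spread. Depth limits Cdx4 in all states, and Gsc, Evx1, Lhx1, Cdx1 and Cdx2 outside pEpiLCs, to a few counts, so smaller differences between aEpiLCs and EpiLCs could not be seen.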
